A study of Homo sapiens with 9 samples.

Results

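The 10 genes described here encode cAMP phosphodiesterases and other proteins of the cAMP pathway, and they were measured in the human colon cancer cell line SW480 and in 2 derivatives that express the tumor suppressor BASP1. They are the 4 PDE4 genes PDE4A, PDE4B, PDE4C and PDE4D, the phosphodiesterase genes PDE3A, PDE3B and PDE8A, and the genes PPP1R1B, PRKAR2B and AKAP12. They are 10 of 63677 Ensembl gene identifiers in the count files. They were chosen from measured values of these same libraries, because PDE4D differed strongly between the BASP1-expressing lines and PPP1R1B was nearly lost in both. Their levels and differences are therefore given as a description, and so are the calls that the fit across all genes gives for them.

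Cyclic AMP is made by adenylyl cyclases, which G protein-coupled receptors switch on through Gs and off through Gi. It activates protein kinase A (PKA) by binding the regulatory subunits of the kinase, and PKA phosphorylates, among others, the transcription factor CREB. Phosphodiesterases end the signal by hydrolyzing cAMP, A-kinase anchoring proteins hold PKA and phosphodiesterases at defined places in the cell, and in the intestinal epithelium cAMP is best known for driving chloride secretion.

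SW480 cells derive from an adenocarcinoma of the large intestine, and the labels give their genotype as WT. SW480-B cells (ectopic BASP1) carry pcDNA3-BASP1, in which a cytomegalovirus promoter drives the BASP1 coding sequence. They were selected with geneticin and grown from a single cell. SW480-gRNA-B-all cells (CRISPRa BASP1) carry MS2-P65-HSF1, dCas9-VP64-GFP and pooled sgRNAs for the BASP1 promoter, so that the cells' own gene is activated. They were selected with hygromycin B and puromycin and passed through a single-cell clone before the sgRNAs were added. Cells with an empty vector, or with the activator but no sgRNA, were not analysed here. A difference between lines that comes with BASP1 and one that comes with the founder cell or the vectors therefore cannot be told apart. All 3 lines share the SW480 background, medium and the date given as batch.

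Each line was sequenced as 3 poly(A) libraries (n = 3), for which no source used here names separate cultures, so the spread between them may be technical. Libraries held 25238831 to 29355669 counts on genes, and 3 counts, the limit that a count of 0 allows, correspond to 0.102 to 0.119 CPM, the common unit of counts relative to a library's total (counting error only). All other CPM values are scaled with TMM factors over the 9 libraries and given with their SD. BASP1 itself was at 6.69 ± 5.44 CPM in SW480, 264 ± 7.95 in SW480-B and 260 ± 80.8 in SW480-gRNA-B-all, and rose in both derivatives (edgeR adjusted p = 0.029 and 0.025). The adjusted p rose above the threshold without SW480 replicate 2 (0.11 and 0.12) and without any 1 library of the derivative (0.081 to 0.20 and 0.070 to 0.089), while the log2 fold change ranged from 4.71 to 5.93. In SW480-gRNA-B-all, replicates 2 and 3 were far closer to each other than other replicates: 1.75% of their genes differed by more than 2-fold, against 11.7% to 32.8% in the other pairs within a line. They still differed by more than sampling noise (chi-square per degree of freedom 3.13) and were kept as separate libraries.

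Of the 7 colon epithelium markers, EPCAM, KRT8 and KRT18 were present in every library, and KRT20 stayed below a mean of 1 CPM in each line. The intestinal markers differed between the lines. VIL1 was at a mean of 245 CPM in SW480, 32.1 in SW480-B and 11.6 in SW480-gRNA-B-all, and it fell in both derivatives (edgeR adjusted p = 0.025 and 0.019). CDH17 was at 8.41 CPM in SW480 and at 0 counts in both derivatives (edgeR adjusted p = 0.042 and 0.033). CDX2, a transcription factor of the intestine, was at 33.8, 61.8 and 3.56 CPM and in SW480-gRNA-B-all it fell relative to both SW480 and SW480-B (edgeR adjusted p = 0.0090 and 0.00099). Without SW480 replicate 2, all these calls against SW480 were lost. In the 6 fits without 1 library, VIL1 in SW480-B and CDH17 in both derivatives kept the call against SW480 in 2. VIL1 and CDX2 in SW480-gRNA-B-all kept it in 3, whereas CDX2 kept its call between the derivatives in all 6. The part of this shift in the differences between the lines was not tested. Of the 4 fibroblast markers, COL3A1 was at 0 counts throughout and 1 or 2 reached a mean of 1 CPM. Their summed level was 3.93 to 5.28 CPM in SW480, 2.95 to 9.30 in SW480-B and 9.13 to 11.0 in SW480-gRNA-B-all. COL1A1 rose in SW480-gRNA-B-all against SW480 (log2 fold change 1.21, edgeR adjusted p = 0.036), a call kept in 2 of 6 fits without 1 library. Of the 2 endothelial markers matched, VWF passed a mean of 1 CPM in both derivatives, and their summed level was 0.655 to 0.972 CPM in SW480, 1.40 to 3.00 in SW480-B and 1.73 to 4.33 in SW480-gRNA-B-all. Of the 3 leukocyte markers PTPRC, CD3E and CD14, no more than 1 reached a mean of 1 CPM in any line, and their summed level stayed between 0.393 and 2.71 CPM.

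PDE4D (ENSG00000113448) was the most abundant PDE4 gene in SW480 and SW480-B, and it was the gene whose level separated the BASP1-expressing lines most widely among these 10. It lies on the minus strand of chromosome 5 at 58264865-59817947 (GRCh37) and encodes a series of long and short cAMP-specific enzymes, the targets of rolipram and roflumilast. Its level was 201, 307 and 389 CPM in the SW480 libraries. It was 411, 457 and 394 CPM in SW480-B and 36.0, 37.6 and 39.0 CPM in SW480-gRNA-B-all. The SW480-gRNA-B-all libraries thus lay far below all others and close to each other, whereas the SW480-B libraries lay just above the highest SW480 library. In means, 299 ± 94.4 CPM in SW480 compared with 421 ± 32.6 in SW480-B and 37.5 ± 1.52 in SW480-gRNA-B-all. The fitted log2 fold change was -3.03 ± 0.25 (SE) for SW480-gRNA-B-all against SW480, 0.50 ± 0.27 for SW480-B against SW480 and -3.50 ± 0.17 between the derivatives, an 11.3-fold difference. In bulk RNA, fewer cells with the transcript and less transcript per cell cannot be told apart.

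PDE4D has many alternative first exons, and RefSeq (GRCh38.p14) gives 8 promoter windows for it, each from 250 bases before to 50 bases after a start. They were searched on both strands for the cAMP response element TGACGTCA, for its shorter core TGACG, for the E-box CACGTG and for the TCF/LEF motif CTTTGAT. Only the core TGACG was found, in 1 of the 8 windows, 57 bases before the start. A TGACG core is held by 24.6% of all 35116 windows, so its presence in 1 window is no feature of PDE4D. That window is shown because it is the only one of the 8 with any of these letters, on the transcript's strand with the core in capitals.
PDE4D, chr5:59587576-59587875, minus strand: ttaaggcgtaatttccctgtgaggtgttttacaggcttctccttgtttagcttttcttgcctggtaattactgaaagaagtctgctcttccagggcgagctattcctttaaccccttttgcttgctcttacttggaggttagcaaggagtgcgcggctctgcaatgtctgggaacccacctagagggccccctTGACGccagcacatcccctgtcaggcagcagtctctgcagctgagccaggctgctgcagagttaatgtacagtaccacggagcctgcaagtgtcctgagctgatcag

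PDE4A (ENSG00000065989), a second cAMP-specific phosphodiesterase gene, was higher in both derivatives, by about the same amount. It was at 11.7, 17.7 and 17.0 CPM in SW480, at 33.4, 26.7 and 21.6 CPM in SW480-B, and at 28.0, 27.7 and 27.1 CPM in SW480-gRNA-B-all. Neither derivative overlapped SW480, and the derivatives overlapped each other. The log2 fold change was 0.80 ± 0.20 for SW480-gRNA-B-all and 0.83 ± 0.28 for SW480-B against SW480, and 0.01 ± 0.20 between the derivatives. The gene overlaps CDC37 on the opposite strand, which had a mean of 141 to 193 CPM in the 3 lines, and since the strand setting of the counting is not given in the sources used here, a share of CDC37 reads in the PDE4A counts was not tested.

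Of the 31 windows found for 8 of the 10 genes, a PDE4A window was the only one with the full element TGACGTCA, which 1.85% of all windows hold. In it the element begins 3 bases before the start. The same window holds TGACG or its reverse complement CGTCA at 7 positions, 2 of them inside the full element, and the other 4 PDE4A windows hold none. It is shown with every copy in capitals, for comparison with the PDE4D window with its single core.
PDE4A, chr19:10416523-10416822, plus strand: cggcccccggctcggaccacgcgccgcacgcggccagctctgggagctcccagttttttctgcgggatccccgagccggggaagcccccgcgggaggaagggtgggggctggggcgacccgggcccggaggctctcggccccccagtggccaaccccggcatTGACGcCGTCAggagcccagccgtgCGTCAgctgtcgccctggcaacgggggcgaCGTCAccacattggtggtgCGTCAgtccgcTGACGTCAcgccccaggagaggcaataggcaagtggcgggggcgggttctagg

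PDE4B (ENSG00000184588), the PDE4 gene best known from inflammatory cells, was low in SW480 and nearly lost from both derivatives. The SW480 libraries held 70, 334 and 64 counts, or 2.29, 11.6 and 2.32 CPM. The SW480-B libraries held 0, 1 and 8 counts and the SW480-gRNA-B-all libraries 4, 2 and 5. All SW480 libraries lay above all others, but replicate 2 held most of the SW480 counts. From summed counts, SW480 was 42.1-fold above SW480-gRNA-B-all (95% counting interval 23.3 to 84.9) and 49.7-fold above SW480-B (25.9 to 109). Without SW480 replicate 2, the fitted log2 fold change of SW480-gRNA-B-all went from -5.42 to -4.19. Without SW480-B replicate 3, that of SW480-B went from -5.55 to -7.86.

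PDE4C (ENSG00000105650) was close to the detection limit in every line. It held 17, 4 and 4 counts in SW480, 11, 7 and 7 in SW480-B and 26, 21 and 20 in SW480-gRNA-B-all. The SW480-gRNA-B-all libraries were above all others, at 0.757 ± 0.108 CPM against 0.280 ± 0.240 in SW480 and 0.308 ± 0.0991 in SW480-B. The log2 fold change against SW480 was 1.35 ± 0.61, and 2.38 without SW480 replicate 1.

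The 4 PDE4 genes were then compared per kilobase of merged exons, since only levels per length can be set beside each other. Their sum was 14.4, 22.8 and 26.6 CPM per kb in SW480, 30.2, 32.0 and 27.4 in SW480-B, and 6.48, 6.50 and 6.52 in SW480-gRNA-B-all. PDE4D made up 85.9 ± 3.42% of the sum in SW480, 86.4 ± 2.53% in SW480-B and 35.4 ± 1.32% in SW480-gRNA-B-all. PDE4A made up 11.0 ± 1.37%, 13.5 ± 2.53% and 62.8 ± 1.14%. Per kb, the leading PDE4 transcript was thus PDE4D in 6 libraries and PDE4A in the 3 SW480-gRNA-B-all libraries. PDE4B and PDE4C never exceeded 5.70% and 1.89%. Merged exons count every alternative first exon of a gene as if it were in use, and PDE4D has the longest model of the 4. The order in SW480-gRNA-B-all turns on these lengths, 16320 bases for PDE4D and 6762 for PDE4A: in CPM, PDE4D was above PDE4A there too.

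**Figure D1:**
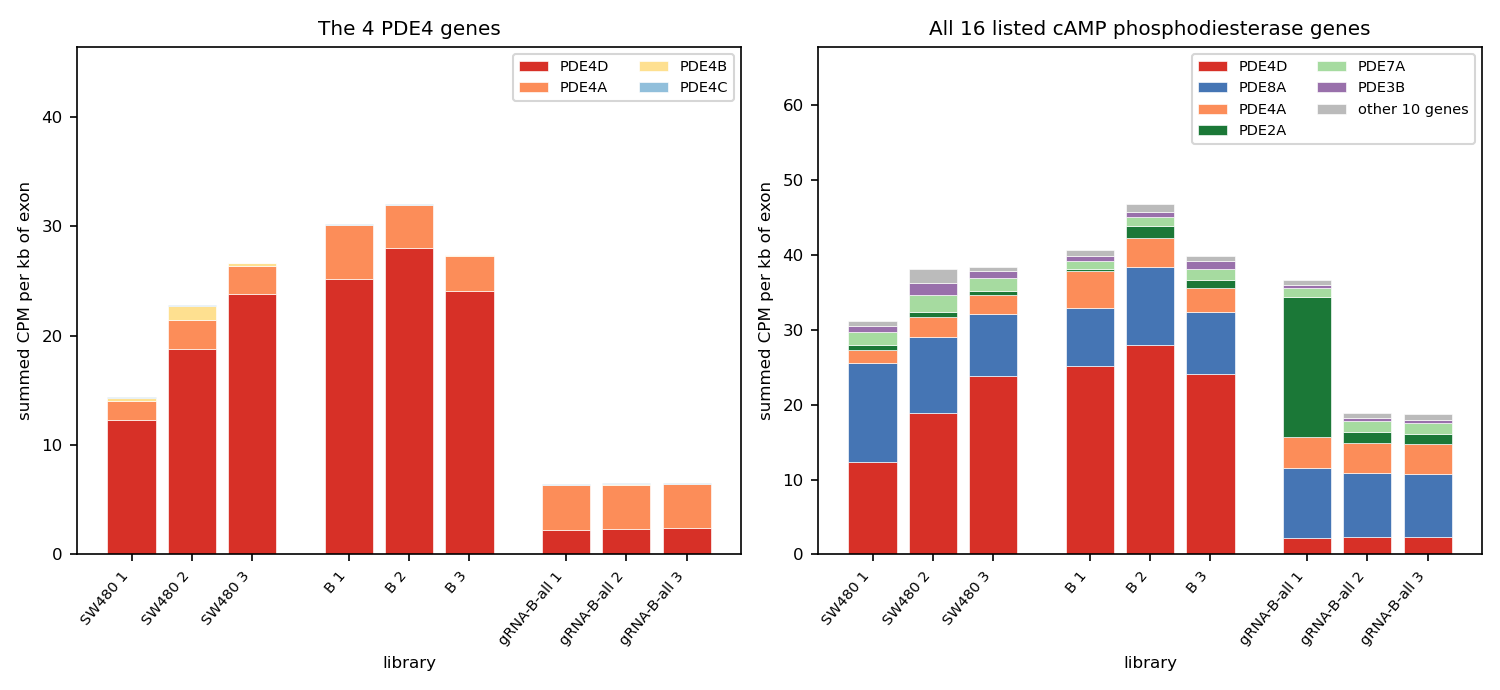
Stacked bars give the summed level in CPM per kb of exon in each of the 9 libraries, for the 4 PDE4 genes (left) and for all 16 listed cAMP phosphodiesterase genes (right), with colors for the genes. The PDE4 bars of SW480-gRNA-B-all are near 6.5 and mostly PDE4A, and replicate 1 of this line differs from replicates 2 and 3 on the right by its PDE2A segment.

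PDE8A (ENSG00000073417), a high-affinity cAMP phosphodiesterase that rolipram does not inhibit, had similar levels in the 3 lines. It was at 106, 81.9 and 66.2 CPM in SW480, at 61.3, 83.0 and 65.9 in SW480-B, and at 75.0, 68.4 and 66.8 in SW480-gRNA-B-all. All lines overlapped, and the log2 fold changes against SW480 were -0.32 ± 0.21 and -0.28 ± 0.25, within 2 standard errors of 0. Per kb of exon it stood at 10.6 CPM in SW480 and at 8.76 in each derivative, so that in SW480-gRNA-B-all it exceeded PDE4D (2.30) and PDE4A (4.08).

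PDE3B (ENSG00000152270), a cGMP-inhibited enzyme known from adipocytes and liver, was lowest in SW480-gRNA-B-all. Its level was 9.50, 19.4 and 10.4 CPM in SW480, 7.26, 7.92 and 11.9 in SW480-B, and 5.51, 4.51 and 5.80 in SW480-gRNA-B-all. SW480-gRNA-B-all lay below both other lines, which overlapped each other. The log2 fold change was -1.35 ± 0.33 against SW480 and -0.78 ± 0.27 against SW480-B.

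PDE3A (ENSG00000172572), its paralog of heart muscle and platelets, held 19, 8 and 4 counts in SW480, none in SW480-B and 1 in the 3 libraries of SW480-gRNA-B-all. SW480-B was at least 9.87-fold lower than SW480, counted against 3 counts over the line, and SW480 stood 30.7-fold above SW480-gRNA-B-all (95% counting interval 5.11 to 1250). It did not pass the filter on low counts in any comparison and was not fitted.

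Among all 16 cAMP phosphodiesterase genes listed, PDE4D held 50.3 ± 11.4% of the summed CPM per kb in SW480, 60.8 ± 1.04% in SW480-B and 10.3 ± 3.74% in SW480-gRNA-B-all. PDE8A held 30.3 ± 10.8%, 20.6 ± 1.67% and 38.4 ± 11.1%. The sum itself was 31.2 to 38.4 in SW480, 39.8 to 46.7 in SW480-B and, in SW480-gRNA-B-all, 36.7 in replicate 1 and 19.0 and 18.7 in replicates 2 and 3. That spread follows PDE2A, a cGMP-stimulated phosphodiesterase, which was at 134 CPM in replicate 1 and at 9.73 and 9.67 CPM in replicates 2 and 3. Its share of the sum was 50.9% in replicate 1 and 7.14% and 7.19% in the others. PDE2A was singled out after its values were seen.

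PPP1R1B (ENSG00000131771) showed the largest fold difference of the 10 genes, and it was lower in both derivatives. It encodes DARPP-32, which inhibits protein phosphatase 1 once PKA has phosphorylated it and is best known from dopamine-responsive neurons. It lies on the plus strand of chromosome 17 at 37782993-37792879 (GRCh37). The SW480 libraries held 610, 612 and 322 counts, or 20.0, 21.2 and 11.7 CPM. The SW480-B libraries held 1, 3 and 0 counts and the SW480-gRNA-B-all libraries 1, 1 and 0. Every library of a derivative was thus at or under the 3 counts that a count of 0 allows, while SW480 was well above it. From summed counts, SW480 was 369-fold above SW480-B (95% counting interval 144 to 1355) and 764-fold above SW480-gRNA-B-all (211 to 6313), and these intervals overlap. Replicate 3 of SW480, the lowest of its line, also had the lowest level of the intestinal markers VIL1 and CDH17, at 98.3 and 1.63 CPM against at least 310 and 6.21 CPM in replicates 1 and 2. Other colon epithelium markers did not share this order. EPCAM was lowest in replicate 3 too, but KRT8, KRT18 and CDX2 were highest there (CDX2 at 41.7 CPM against 28.9 and 30.9). The part of such a difference between the SW480 libraries in the result was not tested.

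PRKAR2B (ENSG00000005249), the regulatory subunit RII-beta of PKA, was highest in the SW480-gRNA-B-all libraries, with no overlap. It was at 4.72, 7.46 and 2.25 CPM in SW480, at 2.04, 1.25 and 4.13 in SW480-B, and at 8.02, 12.5 and 10.5 in SW480-gRNA-B-all. SW480 and SW480-B overlapped. The log2 fold change was 2.05 ± 0.43 for SW480-gRNA-B-all against SW480-B, 1.06 ± 0.44 against SW480, and -0.95 ± 0.60 for SW480-B against SW480. Even so it was a minor regulatory subunit: per kb of exon it made up 0.650 ± 0.361% of the 4 PKA regulatory subunit transcripts in SW480, 0.309 ± 0.185% in SW480-B and 1.01 ± 0.207% in SW480-gRNA-B-all. The others, PRKAR1A, PRKAR1B and PRKAR2A, each held between 23.2% and 47.8% in every library.

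AKAP12 (ENSG00000131016), also called gravin, anchors PKA and PDE4 enzymes at the beta-2 adrenergic receptor and has been described as a tumor suppressor. It was at 98.2, 215 and 308 CPM in SW480, at 240, 590 and 532 in SW480-B, and at 760, 358 and 367 in SW480-gRNA-B-all. All SW480-gRNA-B-all libraries exceeded the highest SW480 library, whereas SW480-B replicate 1 fell between SW480 replicates 2 and 3. The log2 fold change against SW480 was 1.23 ± 0.47 for SW480-gRNA-B-all and 1.14 ± 0.46 for SW480-B, and 0.13 ± 0.40 between the derivatives. Per kb of exon it was the most abundant of the 10 genes in each line, at 23.6 CPM in SW480, 51.7 in SW480-B and 56.4 in SW480-gRNA-B-all. In SW480 this rank turns on the exon lengths, since in CPM PDE4D (mean 299) was above AKAP12 (mean 207) there.

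All 3 RefSeq windows of AKAP12 hold the E-box CACGTG, the motif bound by MYC and related proteins, which is its own reverse complement and occurs in 7.26% of all windows. The stretches around it are shown because AKAP12 had the motif in more windows than any other of the 8 genes searched. PRKAR2B had it in its only window and PDE8A in 1 of 3, and no window was searched for PDE3B and PPP1R1B. They are on the plus strand of GRCh38.p14, with the E-box in capitals and 25 bases on each side, and the motif begins 93, 17 and 11 bases before the start.
AKAP12, chr6:151239849-151239904: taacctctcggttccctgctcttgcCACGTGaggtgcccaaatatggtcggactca
AKAP12, chr6:151325489-151325544: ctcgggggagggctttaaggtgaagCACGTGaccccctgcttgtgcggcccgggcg
AKAP12, chr6:151341670-151341725: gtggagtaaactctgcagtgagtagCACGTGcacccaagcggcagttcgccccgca

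**Figure D2:**
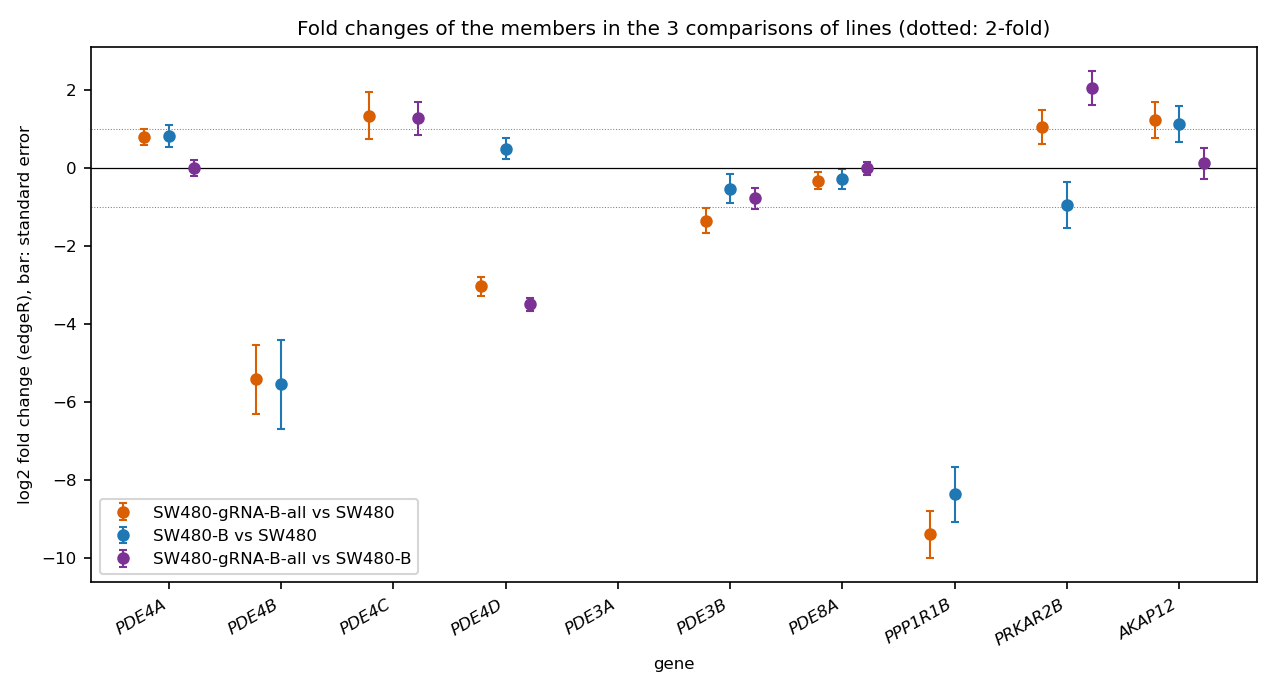
Points give the fitted log2 fold change of each gene with its standard error, in 3 colors for the 3 comparisons of lines, and dotted lines mark a 2-fold change. The BASP1-expressing lines share low PDE4B and PPP1R1B, and they separate at PDE4D (0.50 and -3.03 against SW480) and PRKAR2B (-0.95 and 1.06), and genes that did not pass the filter have no point.

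Calls required an adjusted p from edgeR under 0.05 together with a difference of more than 2-fold. For SW480-gRNA-B-all against SW480, 3 of the 9 genes that passed the filter were called lower (PDE4D, PPP1R1B, PDE4B), where 4.66% of all 16100 genes tested were, and none was called higher, where 1.89% were. The libraries did not overlap for 9 of the 10 genes, beside 37.7% of all genes tested. Counts of non-overlap here cover all 10 genes, whereas the shares beside them and the medians cover only genes that passed the filter. The median log2 fold change was -0.32, beside -0.05 for all genes tested. For SW480-B against SW480, 1 of 8 was called lower (PPP1R1B; background 1.25%) and none higher (0.0931%), and 5 of 10 did not overlap (22.5%), with a median of -0.40 beside -0.00389. Between the derivatives, 1 of 7 was called lower (PDE4D; background 4.37%) and 1 higher (PRKAR2B; 2.31%), and 4 of 10 did not overlap (30.3%), with a median of 0.01 beside -0.00444. The 10 genes were picked from these contrasts and the 2 comparisons against SW480 share its libraries, so nothing is read from these counts.

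These counts moved with single libraries and with the tool, as did the counts over all genes given in the part on processing. For SW480-gRNA-B-all against SW480, PPP1R1B alone was called lower without SW480 replicate 2, a fit that called 8 of all 16508 genes tested. PDE4D and PPP1R1B were called lower without any 1 of the SW480-gRNA-B-all libraries or with replicates 2 and 3 of that line summed. PDE3B was called lower as well without SW480 replicate 1 or 3, with no filter on low counts, with all 9 libraries in 1 fit and with DESeq2. PDE3A was added as lower with no filter and with DESeq2, PDE4C as higher without SW480 replicate 1, and AKAP12 as higher with DESeq2. For SW480-B against SW480, no gene was called without SW480-B replicate 1 or without replicate 2. PDE4B was called lower as well without SW480 replicate 1 or 3, with all 9 libraries in 1 fit, with no filter and with DESeq2, and the last 2 added PDE3A. With the replicate number as a block, AKAP12 was called higher in SW480-B, with a log2 fold change of 1.18. Between the derivatives, PRKAR2B was no longer called without SW480-B replicate 1 or 2 or SW480-gRNA-B-all replicate 2 or 3, with all 9 libraries in 1 fit, or with the summed SW480-gRNA-B-all library.

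The rest of the pathway was counted over 127 other genes in 11 lists, of which 89 to 91 passed the filter. For SW480-gRNA-B-all against SW480, 5 were called higher and 5 lower (11.2% called, beside 6.55% of all genes tested, median log2 fold change 0.01). For SW480-B against SW480, 1 was called higher and none lower (1.11%, beside 1.34%, median -0.04). Between the derivatives, 4 were called higher and 7 lower (12.1%, beside 6.68%, median -0.04). At an unadjusted p under 0.05 stood 30, 21 and 31 of these genes, where 28.4%, 15.8% and 24.4% of all genes tested did. DESeq2 called 17, 10 and 13 genes. For SW480-gRNA-B-all against SW480 the count was 0 without SW480 replicate 2 or SW480-gRNA-B-all replicate 3, 1 without SW480-gRNA-B-all replicate 2, 2 without its replicate 1 and 20 without SW480 replicate 3. For SW480-B against SW480 it was 0 without SW480 replicate 2 or any 1 SW480-B library and 11 without SW480 replicate 3, and between the derivatives it was 4 without SW480-B replicate 2 and 6 and 5 without SW480-gRNA-B-all replicates 2 and 3.

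Among the receptors and G proteins, 2 receptor genes and 2 alpha subunit genes passed the test against SW480. GIPR, the receptor of the incretin GIP, rose in SW480-gRNA-B-all from 1.15 to 1.92 CPM in SW480 to 4.51 to 6.16 CPM (log2 fold change 1.79 ± 0.34, edgeR adjusted p = 0.030). It was at 4.84, 4.62 and 3.06 CPM in SW480-B, where the edgeR test was not passed (edgeR adjusted p = 0.15) but DESeq2 called it higher. PTGER2, the prostaglandin E2 receptor EP2, rose in SW480-B from 0.0983 to 0.417 CPM to 1.91 to 8.06 CPM (4.22 ± 0.73, adjusted p = 0.037). Compared with SW480-B it was low in SW480-gRNA-B-all (log2 fold change -4.20 ± 0.58, edgeR adjusted p = 0.0056). GNAI1, an inhibitory alpha subunit, fell in SW480-gRNA-B-all (log2 fold change -7.07 ± 1.42, edgeR adjusted p = 0.034). It was at 182, 86.3 and 32.6 CPM in SW480, 13.5, 19.1 and 16.4 in SW480-B, and 2.20, 0.102 and 0 in SW480-gRNA-B-all. In SW480-B, GNAI1 did not pass the edgeR test (log2 fold change -2.63, edgeR adjusted p = 0.071), while DESeq2 called it lower. GNAL, the stimulatory alpha subunit known from olfactory neurons, fell in SW480-gRNA-B-all, with log2 fold changes of -1.82 ± 0.33 against SW480 and -1.95 ± 0.24 against SW480-B (edgeR adjusted p = 0.026 and 0.0038). GNAO1, another alpha subunit, and the VIP receptor gene VIPR1 exceeded their SW480-B levels in SW480-gRNA-B-all (log2 fold changes 2.03 ± 0.32 and 1.04 ± 0.19, edgeR adjusted p = 0.0088 and 0.016).

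Of the other enzymes that make and degrade cAMP, the phosphodiesterases called were low in level, at no more than 7.40 CPM in any library. ADCY7, an adenylyl cyclase, rose in SW480-gRNA-B-all from 1.90, 6.91 and 6.63 CPM to 26.2, 21.6 and 22.1 CPM (2.15 ± 0.46, edgeR adjusted p = 0.038), and it had 19.2, 23.1 and 19.3 CPM in SW480-B. There it did not pass the edgeR test (log2 fold change 2.02, edgeR adjusted p = 0.089). DESeq2, and edgeR with all 9 libraries in 1 fit, called ADCY7 higher in SW480-B. PDE10A rose in SW480-gRNA-B-all from 0.131, 0.347 and 0.471 CPM to 6.97, 5.25 and 7.40 CPM (4.33 ± 0.49, edgeR adjusted p = 0.0089) and was also above SW480-B (1.81 ± 0.32, adjusted p = 0.012). PDE1B, a calcium- and calmodulin-dependent phosphodiesterase, rose to no more than 2.17 CPM (3.15 ± 0.65, edgeR adjusted p = 0.036). In SW480-B, PDE10A and PDE1B were at means of 1.84 and 0.763 CPM, also above every SW480 library. There they did not pass the edgeR test (log2 fold changes 2.55 and 2.21, edgeR adjusted p = 0.081 and 0.15), and DESeq2 called PDE10A higher. PDE8B, the paralog of PDE8A, fell in SW480-gRNA-B-all relative to SW480-B (log2 fold change -2.85 ± 0.53, edgeR adjusted p = 0.015). Of the 9 other phosphodiesterase genes listed, 6 passed the filter, and 2 rose in SW480-gRNA-B-all against SW480.

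**Figure D3:**
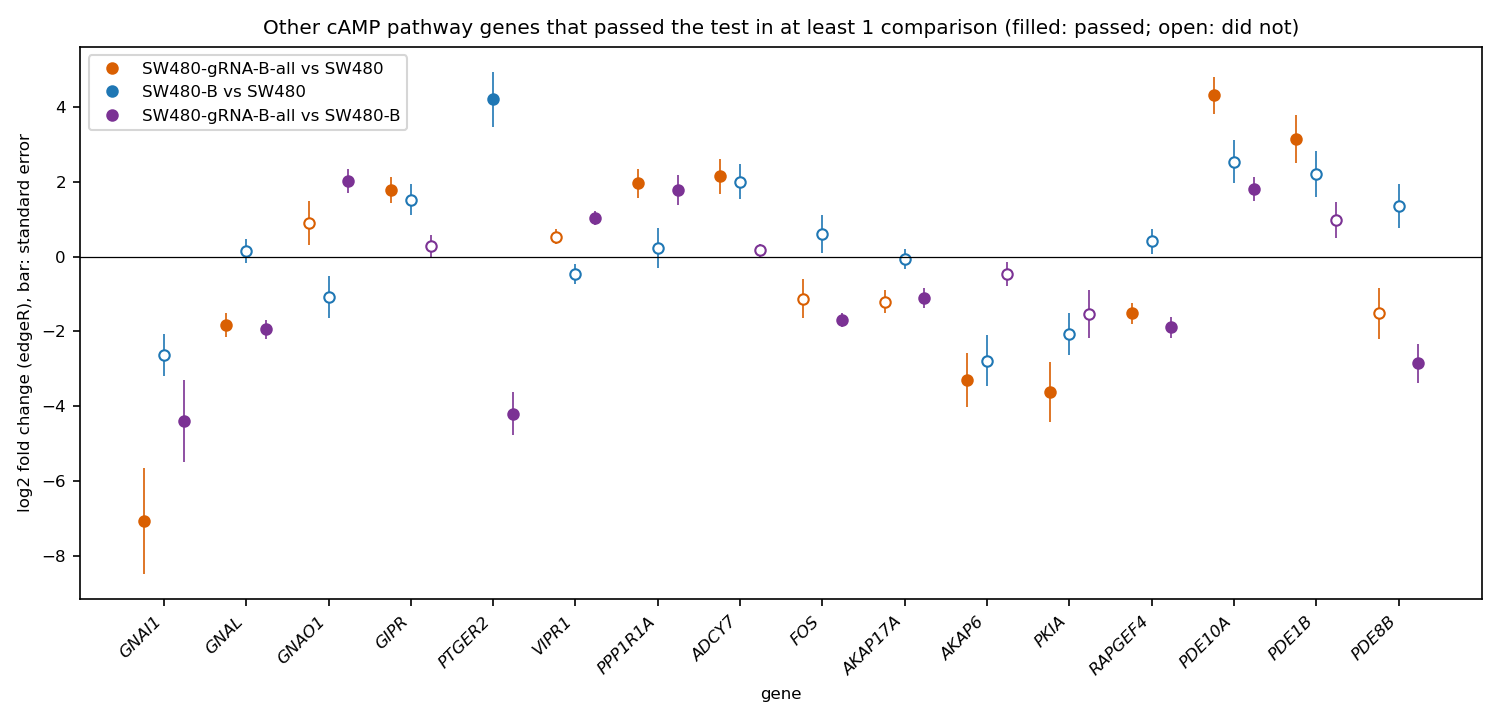
Points give the log2 fold change, with its standard error, of the 16 other cAMP pathway genes that passed the test in at least 1 comparison, filled where they passed and open where they did not. GNAI1 in SW480-gRNA-B-all is the lowest point (-7.07) and PDE10A (4.33) the highest, with PTGER2 in SW480-B close to it (4.22).

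Downstream of cAMP, few genes passed the test. RAPGEF4, which encodes the cAMP-activated exchange factor EPAC2, fell in SW480-gRNA-B-all, with log2 fold changes of -1.51 ± 0.28 against SW480 and -1.89 ± 0.29 against SW480-B (edgeR adjusted p = 0.028 and 0.0075). PKIA, a PKA inhibitor, and AKAP6, an anchoring protein of heart muscle, fell in SW480-gRNA-B-all against SW480 (log2 fold changes -3.62 ± 0.81 and -3.29 ± 0.72, edgeR adjusted p = 0.043 and 0.040). AKAP6 was at 20.3, 13.4 and 2.68 CPM in SW480 and at 1.65 to 1.91 CPM in SW480-B. PKIA was at a mean of 2.47 CPM in SW480, 0.589 in SW480-B and 0.203 in SW480-gRNA-B-all. In SW480-B it did not pass the edgeR test (log2 fold change -2.06, edgeR adjusted p = 0.15), while DESeq2 called PKIA and AKAP6 lower there too. PPP1R1A, a phosphatase 1 inhibitor related to PPP1R1B, rose in SW480-gRNA-B-all, but only from 0.262 to 0.507 CPM to 1.42 to 1.97 CPM (1.97 ± 0.39, edgeR adjusted p = 0.031). In SW480-B it was at a mean of 0.473 CPM, beside 0.407 CPM in SW480 (log2 fold change 0.23, edgeR adjusted p = 0.87). AKAP17A fell relative to SW480-B (log2 fold change -1.10 ± 0.27, edgeR adjusted p = 0.040).

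None of the 8 genes of the CREB family and its coactivators was called in any comparison by edgeR or DESeq2, and none had an unadjusted p under 0.05. Of the 16 CREB target genes listed, 12 were tested against SW480 and none was called, with 4 at an unadjusted p under 0.05 in each comparison and 2 called by DESeq2 in each. Between the derivatives, edgeR called 1 of 11, FOS, and 6 had an unadjusted p under 0.05, where 24.4% of all genes tested did. DESeq2 called 2, FOSB and FOS, both lower in SW480-gRNA-B-all. FOS was at 36.0, 48.8 and 53.9 CPM in SW480-B and at 13.7, 14.6 and 15.1 CPM in SW480-gRNA-B-all (log2 fold change -1.68 ± 0.19, edgeR adjusted p = 0.0028). In SW480 it spread from 11.8 to 58.1 CPM and overlapped both. Of the 6 PDE4 partner proteins tested, such as the myomegalin gene PDE4DIP, none was called by edgeR, with 1, 3 and 4 at an unadjusted p under 0.05. Between the derivatives, DESeq2, and edgeR with the replicate number as a block, called ARRB1 lower in SW480-gRNA-B-all.

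The calls against SW480 were lost in most of the 6 fits that leave out 1 library each. Those of GIPR, ADCY7, GNAL, RAPGEF4 and PPP1R1A in SW480-gRNA-B-all and of PTGER2 in SW480-B were kept only without SW480 replicate 1 or 3. Those of PKIA, AKAP6 and PDE1B were kept only without SW480 replicate 3, with an edgeR adjusted p of up to 0.16, 0.15 and 0.14. GNAI1 kept its call in 3 of the 6 fits and PDE10A in 4.

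The genes around PPP1R1B and PDE4D were compared to see whether the differences extend along the chromosome. Around PPP1R1B, 20 genes with at least 1 CPM in 1 line start within 500 kb, among them ERBB2 and GRB7. PNMT, which encodes the adrenaline-forming methyltransferase and starts 41241 bases from PPP1R1B, was the only one called against SW480. It was at 3.41 ± 1.01 CPM in SW480, 0.427 ± 0.160 in SW480-B and 0.135 ± 0.135 in SW480-gRNA-B-all. It fell in both derivatives, with log2 fold changes of -2.98 in SW480-B and -4.65 in SW480-gRNA-B-all (edgeR adjusted p = 0.035 and 0.027). It lost the call without SW480 replicate 2 (adjusted p = 0.13 and 0.11) and without any 1 library of the derivative compared (0.082 to 0.22 and 0.062 to 0.12). STARD3, which starts 10350 bases from PPP1R1B, was at 51.3 ± 3.74 CPM in SW480 and not lower in the derivatives (71.0 ± 7.66 and 68.3 ± 6.88). ERBB2 was at 72.9 ± 21.5, 88.8 ± 10.1 and 109 ± 1.97 CPM. Between the derivatives NR1D1 alone was called, at 51.2 ± 21.9 CPM in SW480-B and 14.2 ± 1.90 in SW480-gRNA-B-all (edgeR adjusted p = 0.015). It lost the call without SW480-B replicate 1 or 2 or SW480-gRNA-B-all replicate 3 (adjusted p = 0.061, 0.070 and 0.055).

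Around PDE4D, the 4 genes DEPDC1B, ERCC8, ELOVL7 and NDUFAF2 met the same condition and none was called in any comparison. All 4 start on the side before the PDE4D start. The other side of the window lies within PDE4D itself, so genes beyond its far end were not compared. Nearest was DEPDC1B, at 48.3 ± 8.28 CPM in SW480, 34.8 ± 14.0 in SW480-B and 32.3 ± 10.8 in SW480-gRNA-B-all (log2 fold change -0.62 for SW480-gRNA-B-all against SW480, edgeR adjusted p = 0.20).

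**Figure D4:**
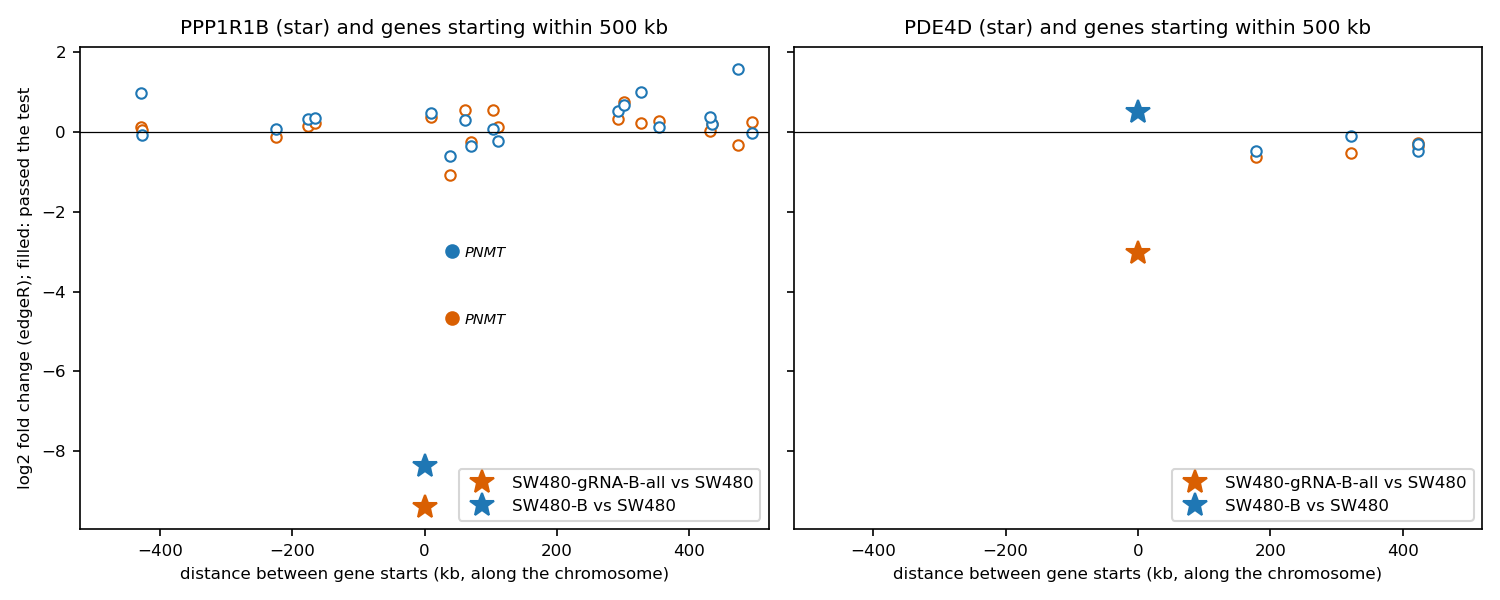
Log2 fold change against SW480 is plotted over the distance between gene starts in kb, for PPP1R1B (left) and PDE4D (right) as stars and for genes starting within 500 kb as circles, filled where they passed the test. PNMT lies at -2.98 and -4.65 beside PPP1R1B, and the 4 neighbors of PDE4D lie close to 0.

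The profiles most like those of PDE4D and PPP1R1B were sought among 14015 genes with a mean of at least 1 CPM, by the mean absolute difference of centered log2 CPM over the 9 libraries. Closest to PDE4D were WNT16, a WNT ligand (0.26), OXR1, an oxidation resistance gene (0.31), and BAMBI, a pseudoreceptor that dampens TGF-beta signaling (0.31). WNT16 was at a mean of 2.66 CPM in SW480, 5.10 in SW480-B and 0.350 in SW480-gRNA-B-all, and BAMBI at 167, 188 and 26.4 CPM. Closest to PPP1R1B were a gene on chromosome 19 without a name, ENSG00000267243 (0.35), the calcium channel subunit gene CACNA2D1 (0.42) and the somatostatin receptor gene SSTR1 (0.44), whose product couples to Gi. SSTR1 was at 34.7, 26.6 and 6.88 CPM in SW480 and at no more than 0.0358 CPM in the derivatives. Like PPP1R1B, all 3 were lowest in SW480 replicate 3 among the SW480 libraries, which their selection by likeness over these same libraries favored.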

How the data were processed

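The authors sequenced RNA of 3 lines in 3 libraries each (stranded, poly(A)), aligned the reads to GRCh37 and deposited raw counts per Ensembl gene. The counter and its strand setting are not given in the sources used here. Lines of the count files that name no gene held 5.22% to 9.93% (no feature) and 3.09% to 3.44% (ambiguous) of a library and were left out. Alignment metrics were not used here. Symbols were matched for 55665 identifiers (99.4% of counts).

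Each pair of lines was fitted over its own 6 libraries in edgeR 4.0.16 (R 4.3.3): filterByExpr (least count 10, least total 15), TMM, glmQLFit (robust), glmQLFTest and Benjamini-Hochberg adjustment over all genes tested, called at an adjusted p under 0.05 and above 2-fold. The scripts were tested on simulated data. DESeq2 1.42.0, other scalings, filters, fits and each replicate left out were alternatives. The members and gene lists were chosen with earlier results of these data known. Named were all members, BASP1, up to 3 called genes per list and comparison with at least 1 CPM, genes starting within 500 kb of PDE4D or PPP1R1B, and the 3 most similar profiles of each. Of the listed pathway genes, 127 of 129 were matched. Coordinates of genes are those of the GENCODE annotation for GRCh37, promoter windows those of RefSeq on GRCh38.p14, which gave windows for 8 of the 10 members. Same-numbered libraries of SW480-B and SW480 deviated together (r = 0.29, 0.32 and 0.39 over 16650 genes), so for that comparison the block is given beside results it changes, although no source says what the number marks.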

Additional observations from a re-analysis of the deposited data

Results flagged for a closer look

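Some genes of the pathway differed between the 2 BASP1-expressing lines themselves, as log2 fold changes of SW480-gRNA-B-all against SW480-B that passed the edgeR test. Higher in SW480-gRNA-B-all were GNAO1 (2.03), PDE10A (1.81), PPP1R1A (1.78) and VIPR1 (1.04). Lower were GNAI1 (-4.40), PTGER2 (-4.20), PDE8B (-2.85), GNAL (-1.95), RAPGEF4 (-1.89), FOS (-1.68) and AKAP17A (-1.10). In the 6 fits that leave out 1 library each, FOS, GNAL, PTGER2 and RAPGEF4 kept the call in all 6, GNAO1 in 5, PDE10A in 4, PDE8B and VIPR1 in 3, AKAP17A and PPP1R1A in 2 and GNAI1 in 1. With all 9 libraries in 1 fit, GNAO1, GNAI1, AKAP17A and FOS lost their calls (edgeR adjusted p = 0.073 for FOS).

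PDE4D and PRKAR2B, 2 of the 10 genes, lay on opposite sides of the SW480 mean in the 2 lines. For PDE4D the mean of SW480-B was 421 CPM and that of SW480-gRNA-B-all 37.5 CPM, and for PRKAR2B they were 2.48 and 10.3 CPM. Against SW480, neither gene was called in SW480-B (log2 fold changes 0.50 ± 0.27 and -0.95 ± 0.60, both within 2 standard errors of 0), and PRKAR2B overlapped SW480 there. Because these genes were chosen from this contrast, the difference is a description: it was not tested in libraries that the choice did not use, and the edgeR calls given for both genes are no independent support.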

How the results depend on the processing

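Counts of called genes depended on the tool and on single libraries, and the cause was not tested. With DESeq2, SW480-gRNA-B-all against SW480 had 17 pathway genes and 2380 genes in all (edgeR 10 and 1055), and SW480-B against SW480 had 10 and 1096 (edgeR 1 and 216). SW480-B against SW480 gave 6 and 735 with no filter on low counts and 6 and 452 with all 9 libraries in 1 fit, and a filter of 1 CPM in 3 libraries left 143 genes in all. Between the derivatives, all 9 libraries in 1 fit gave 7 and 654 (main 11 and 1059). With SW480-gRNA-B-all replicates 2 and 3 summed into 1 library, the counts were 1 and 97 against SW480 and 6 and 446 against SW480-B. Leaving out 1 library gave 0 to 20 pathway genes and 8 to 2659 genes in all for SW480-gRNA-B-all against SW480, 0 to 11 and 0 to 921 for SW480-B against SW480, and 4 to 14 and 420 to 1548 between the derivatives. With the replicate number as a block, the counts were 13 and 1199, 1 and 319, and 13 and 1389, none more than 1.5 times from the main count. In the comparisons of SW480-gRNA-B-all with SW480 and with SW480-B, replicate 2 did not pair with its same-numbered library (r = -0.04 and -0.09). Replicates 1 and 3 gave r = 0.29 and 0.27 with SW480 and 0.23 and 0.24 with SW480-B. In those comparisons the block ended the calls of AKAP6 against SW480 (adjusted p = 0.051) and GNAI1 between the derivatives, and added AREG, NR4A1, PPP3CA and AKAP17A against SW480 and ARRB1, SIK1 and AKAP5 between the derivatives. RLE size factors and a threshold without the fold limit moved no count by more than 1.5 times.

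Refits were compared only where a gene passed the filter in the main fit, so PDE3A had none. PDE4C had none for SW480-B against SW480, and PDE4B and PPP1R1B had none between the derivatives. Where fitted, the log2 fold changes of the 10 genes stayed within the spread between replicates in 296 of 302 refits, and none changed direction by more than that spread. The 6 others left out 1 library: PPP1R1B (-8.88 without SW480-gRNA-B-all replicate 3 and -9.57 without SW480-B replicate 2), PDE4B (-4.19 without SW480 replicate 2 and -7.86 without SW480-B replicate 3), PDE4C against SW480 (2.38 without SW480 replicate 1) and PDE4C between the derivatives (1.58 without SW480-B replicate 1). PDE4D ranged from -3.22 to -2.78 for SW480-gRNA-B-all against SW480 and from -3.55 to -3.44 between the derivatives. Depth limits PDE3A, PDE4C and, in the derivatives, PDE4B and PPP1R1B, which held few counts.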
